A study of Rattus norvegicus with 22 samples.

Results

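A list of 9 genes of mineral metabolism was followed across the kidneys of 22 rats. They are Kl (klotho), Vdr, Cyp27b1, Cyp24a1, Trpv5, Calb1, S100g, Casr and Pth1r, 9 of the 17334 genes measured. They were taken as a named list by their rat Entrez identifiers, and all 9 passed the filter on low counts, which kept 12867 genes. The animals were male PKD/Mhm (Cy/+) rats, heterozygous carriers of a mutation that gives cystic kidney disease, and every kidney was taken at an age of 8 months. The groups were 6 untreated rats, 6 rats given human adipose-derived stromal cells (ASC) into the peritoneal cavity (i.p. ASC), 6 rats given the same cells into a vein (i.v. ASC) and 4 rats given medium conditioned by such cells (ASC-derived CM). The treatments ran over 6 months. The labels give no route for the ASC-derived CM, and no healthy rats were analysed here, so all values describe cystic kidneys that received human cells or their medium, or neither.

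The kidney makes active vitamin D, clears phosphate and decides how much filtered calcium is returned to the blood. Klotho, a membrane protein of the distal tubule, is the co-receptor through which the bone hormone FGF23 acts on the kidney, and its shed form circulates. Parathyroid hormone and active vitamin D act on the same tubules through Pth1r and Vdr, and the distal convoluted and connecting tubule carries calcium through the cell with a channel (Trpv5), a calcium-binding shuttle (Calb1) and pumps on the blood side.

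Total counts ran from 12195682 to 14734772 per rat. All lists of kidney cell markers were present, though not every gene of them was measured. Of 10 listed markers of the distal convoluted and connecting tubule 7 were measured and 6 tested, and of 6 urothelium markers 5 were measured. No measured marker was at 0 in all 22 rats, though Pvalb, a distal convoluted tubule marker, had a median of 0 TPM. TPM is a count scaled to transcript length and library total. The summed level of 5 urothelium markers stood apart in the i.v. ASC group, where it ran from 2.38 to 542 TPM with a median of 73.8 TPM. In the untreated group it ran from 1.95 to 16.4 TPM, in the i.p. ASC group from 2.00 to 10.3 TPM and in the ASC-derived CM group from 2.77 to 3.44 TPM. In whole kidney RNA, fewer cells of a type and less RNA per cell cannot be told apart. The p-values of the fold changes below rest on the spread between rats of a group. Those of the correlations come from shuffling all 22 rats across the groups, so differences between groups enter them too.

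In untreated rats the level per transcript length was highest for Calb1, at 503 ± 140.1 TPM (SD, n = 6). Pth1r followed at 179 ± 21.8 TPM, Kl at 98.0 ± 25.5 TPM and Vdr at 62.3 ± 14.8 TPM. Calb1 and Pth1r each lay apart from the next gene in this order by more than their SDs, whereas Kl and Vdr, Vdr and Trpv5, Trpv5 and Cyp24a1, and Cyp24a1 and Casr were neighbours whose mean ± SD overlapped. Trpv5 was at 39.0 ± 10.4 TPM, Cyp24a1 at 31.5 ± 15.9 TPM and Casr at 26.7 ± 8.06 TPM. S100g, at 3.40 ± 1.28 TPM, and Cyp27b1, at 0.708 ± 0.375 TPM, were the lowest. These 2 genes rested on few reads, with 3 to 27 estimated counts per rat for S100g and 5 to 32 for Cyp27b1. Over all 22 rats the members also differed in how steady they were, from a 1.65-fold range between the highest and lowest rat for Pth1r to an 8.54-fold range for S100g.

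**Figure D1:**
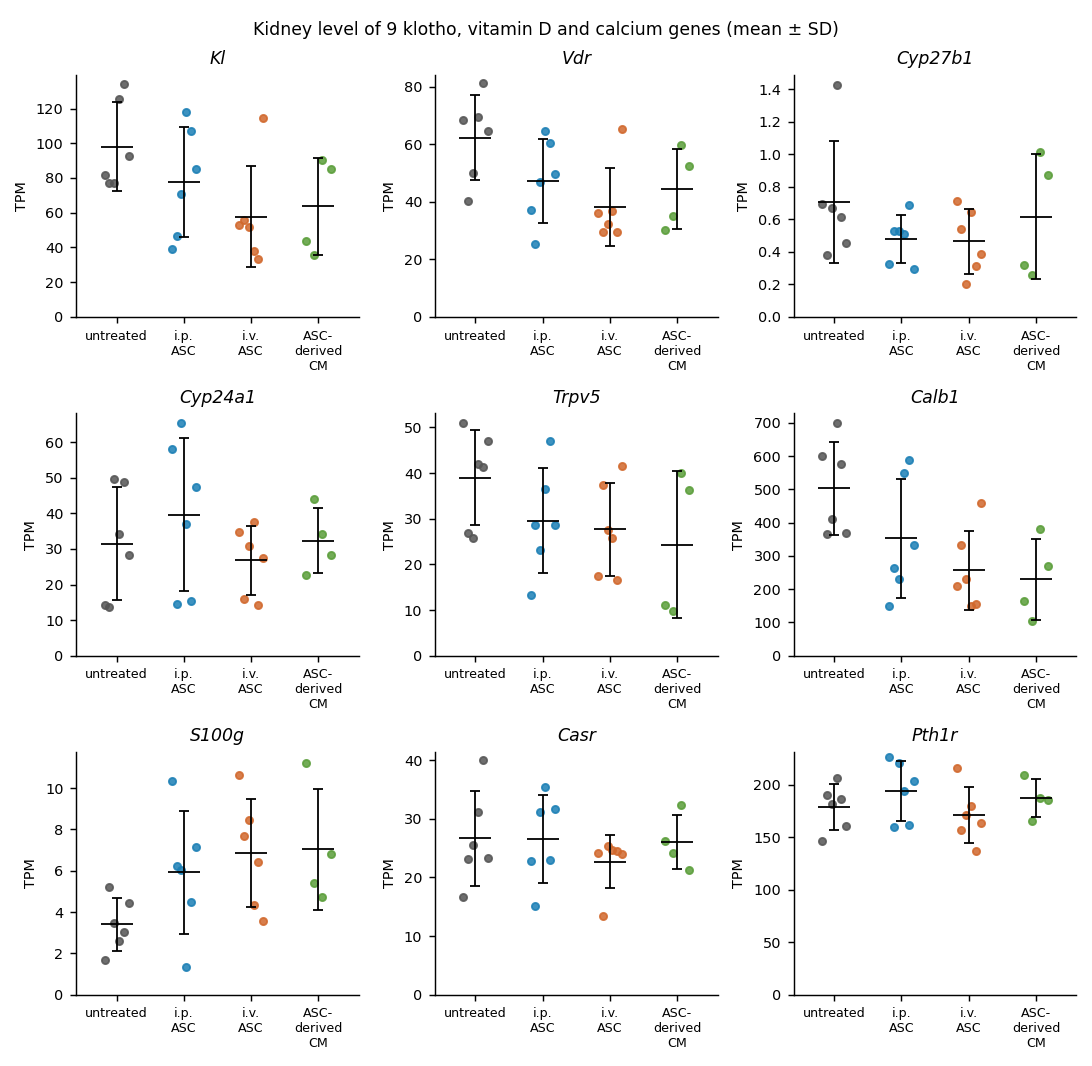
Level of each of the 9 genes in TPM (y axis, from 0) in each rat of the 4 groups (x axis); each point is 1 rat, the long bar is the group mean and the whiskers are ± SD. Calb1 lay between 366 and 698 TPM in untreated rats and reached down to 104 TPM in ASC-derived CM rats, S100g lay at 1.66 to 5.23 TPM in untreated rats and reached 11.2 TPM in treated rats, and the groups overlapped for every gene shown.

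Promoter sequence is shown for 3 of the genes that varied together from rat to rat (described further on), to set the DNA before their starts side by side. RefSeq windows of assembly GRCr8 were found for 6 of the 9 genes, Cyp24a1, Calb1 and S100g being without one. Printed are the 250 bases before the annotated start, 5′ to 3′ on the strand of the gene, for Kl (chr12:5325753-5326002, plus strand), Vdr (chr7:130916758-130917007, minus strand) and Trpv5 (chr4:71529383-71529632, minus strand). Capitals mark motifs searched on both strands. One is the GC box GGGCGG, found in 30.5% of the 33469 RefSeq windows of this length, and another the TATA box TATAAA, found in 12.9%. The others are half-sites of the vitamin D receptor. The half-site AGGTCA was found in 14.1% of windows. For GGGTCA the share of all windows was 11.9%. For GGTTCA the share of all windows was 9.77%. For AGTTCA the share of all windows was 12.2%.
Kl: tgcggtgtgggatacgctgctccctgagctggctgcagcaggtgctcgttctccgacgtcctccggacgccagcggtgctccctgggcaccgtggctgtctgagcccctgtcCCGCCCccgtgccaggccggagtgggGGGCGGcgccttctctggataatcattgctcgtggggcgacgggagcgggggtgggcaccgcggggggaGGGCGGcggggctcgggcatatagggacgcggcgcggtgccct
Vdr: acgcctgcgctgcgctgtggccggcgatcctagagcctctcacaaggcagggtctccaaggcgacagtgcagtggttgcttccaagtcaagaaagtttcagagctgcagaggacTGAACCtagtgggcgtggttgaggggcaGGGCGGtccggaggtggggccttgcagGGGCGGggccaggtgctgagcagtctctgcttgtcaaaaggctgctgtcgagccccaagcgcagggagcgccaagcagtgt
Trpv5: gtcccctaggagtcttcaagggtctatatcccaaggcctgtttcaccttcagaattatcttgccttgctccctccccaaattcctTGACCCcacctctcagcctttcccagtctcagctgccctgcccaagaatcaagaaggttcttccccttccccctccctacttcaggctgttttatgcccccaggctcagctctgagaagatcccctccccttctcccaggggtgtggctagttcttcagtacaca
The Kl window held 3 GC boxes, which do not overlap, and no half-site. The Vdr window held 2 GC boxes and 1 half-site, GGTTCA on the opposite strand, and the Trpv5 window held 1 half-site, GGGTCA on the opposite strand, and no GC box. Their GC contents were 73.2%, 63.6% and 54.4%, against a median of 51.2% over all windows, of which 39.1% held at least 1 half-site. The full vitamin D response element of DR3 type, a direct repeat of half-sites, was in none of the 6 windows and in 0.0926% of all windows.

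The level of klotho reached further down in each treated group than in untreated rats. The Kl level was 77.0 TPM in the lowest untreated rat, 87.0 TPM at the median and 134 TPM in the highest. In the i.p. ASC group these values were 38.9, 78.0 and 118 TPM, and in the i.v. ASC group 33.4, 52.4 and 115 TPM. The 4 ASC-derived CM rats were at 43.6, 35.5, 90.5 and 84.99 TPM. Below every untreated rat lay 5 of the 6 i.v. ASC rats, and the remaining rat, rat 6, lay within the untreated range. The fitted log2 fold change of Kl against untreated rats was -0.26 ± 0.27 (SE) after i.p. ASC, -0.67 ± 0.27 after i.v. ASC and -0.58 ± 0.31 after ASC-derived CM. None passed the threshold, with edgeR adjusted p of 0.826, 0.523 and 0.716.

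Vdr encodes the nuclear receptor for active vitamin D. Its level was 40.3 TPM in the lowest untreated rat, 66.5 TPM at the median and 81.4 TPM in the highest. After i.p. ASC the lowest, median and highest were 25.3, 48.3 and 64.5 TPM, and after i.v. ASC 29.5, 34.2 and 65.3 TPM. After ASC-derived CM the 4 rats had 30.3, 35.2, 59.8 and 52.5 TPM. Every treated rat lay below the untreated median, and 5 of the 6 i.v. ASC rats lay below the lowest untreated rat. The log2 fold change of Vdr was -0.31 ± 0.19 after i.p. ASC, -0.60 ± 0.19 after i.v. ASC and -0.43 ± 0.21 after ASC-derived CM. The edgeR adjusted p-values were 0.771, 0.523 and 0.711, so none was called.

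Cyp27b1 makes active vitamin D and Cyp24a1 breaks it down. Cyp27b1 was at 0.381, 0.642 and 1.43 TPM in the lowest, median and highest untreated rat, at 0.297, 0.519 and 0.689 TPM after i.p. ASC and at 0.202, 0.463 and 0.714 TPM after i.v. ASC. The ASC-derived CM rats had 0.322, 0.260, 1.02 and 0.871 TPM. The groups overlapped widely, the counts were few and no difference was called. The log2 fold changes were -0.46 ± 0.37, -0.47 ± 0.37 and -0.16 ± 0.40 for the 3 treatments in the same order. Cyp24a1 was at 13.7, 31.2 and 49.7 TPM in untreated rats, at 14.5, 42.2 and 65.5 TPM after i.p. ASC and at 14.2, 29.0 and 37.5 TPM after i.v. ASC. With ASC-derived CM the rats had 22.6, 44.1, 34.3 and 28.3 TPM. The Cyp24a1 level varied 3.62-fold among untreated rats alone. Its log2 fold changes were 0.46 ± 0.39, -0.11 ± 0.39 and 0.11 ± 0.44, and no adjusted p of either enzyme was below 0.588. In every rat the level of Cyp24a1 was above that of Cyp27b1 per transcript length. The ratio of their TPM values lay between 20.3 and 79.6 in untreated rats (median 49.1), between 22.4 and 179.5 after i.p. ASC (median 98.1), between 29.6 and 152 after i.v. ASC (median 53.6) and between 32.5 and 169.9 after ASC-derived CM (median 52.01). These ratios rest on the few counts of Cyp27b1 and are given with no test.

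Trpv5 is the calcium channel of the luminal side of the distal tubule. Its level was 25.7, 41.6 and 51.0 TPM in the lowest, median and highest untreated rat, 13.3, 28.7 and 47.0 TPM after i.p. ASC and 16.5, 26.6 and 41.5 TPM after i.v. ASC. The ASC-derived CM rats fell into a low pair, at 11.1 and 9.83 TPM, and a high pair, at 40.0 and 36.4 TPM. The untreated rats overlapped with each treated group. The log2 fold change of Trpv5 was -0.30 ± 0.31, -0.37 ± 0.31 and -0.65 ± 0.36 in the 3 comparisons, with edgeR adjusted p of 0.825, 0.615 and 0.717.

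Calb1 (calbindin) buffers and ferries calcium inside the same cells and had the largest negative fold changes of the members after i.v. ASC and ASC-derived CM. Untreated rats had 366 TPM at the lowest, 494 TPM at the median and 698 TPM at the highest. After i.p. ASC these values were 148, 299 and 588 TPM, and after i.v. ASC 148, 221 and 458 TPM. Those given ASC-derived CM had 165, 104, 379 and 268 TPM. Below every untreated rat lay 4 of 6 i.p. ASC rats, 5 of 6 i.v. ASC rats and 3 of 4 ASC-derived CM rats. The log2 fold change of Calb1 was -0.46 ± 0.31 after i.p. ASC, -0.87 ± 0.32 after i.v. ASC (0.55-fold) and -1.09 ± 0.36 after ASC-derived CM (0.47-fold). The edgeR adjusted p-values were 0.771, 0.523 and 0.711.

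S100g, the small calbindin best known from the gut, had fold changes of the opposite sign to those of Calb1. It was at 1.66, 3.25 and 5.23 TPM in the lowest, median and highest untreated rat. After i.p. ASC it was at 1.32, 6.14 and 10.3 TPM and after i.v. ASC at 3.57, 7.07 and 10.6 TPM. Rats given ASC-derived CM had 11.2, 5.41, 4.72 and 6.79 TPM. Above every untreated rat lay 4 of 6 i.p. ASC rats, 4 of 6 i.v. ASC rats and 3 of 4 ASC-derived CM rats. The log2 fold change of S100g was 0.87 ± 0.43, 1.17 ± 0.42 (2.25-fold) and 1.10 ± 0.46 (2.15-fold), with edgeR adjusted p of 0.771, 0.523 and 0.711. S100g has one of the shortest transcripts measured, at percentile 0.72 of transcript length among the genes tested, and its counts of 3 to 27 per rat limit the precision.

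Casr, the calcium-sensing receptor of the thick ascending limb, and Pth1r, the parathyroid hormone receptor, were the steadiest members. Casr was at 16.6, 24.5 and 40.0 TPM in untreated rats, at 15.05, 27.1 and 35.4 TPM after i.p. ASC and at 13.5, 24.3 and 25.3 TPM after i.v. ASC. The ASC-derived CM rats had 26.3, 24.2, 32.3 and 21.3 TPM. Pth1r was at 146, 184 and 207 TPM in untreated rats, at 159, 199 and 226 TPM after i.p. ASC and at 137, 168 and 216 TPM after i.v. ASC, while the ASC-derived CM rats had 209, 165, 187 and 186 TPM. All groups overlapped for both genes. The log2 fold changes ran from -0.12 ± 0.19 to 0.07 ± 0.19 for Casr and from 0.05 ± 0.14 to 0.22 ± 0.14 for Pth1r, and those of Casr changed sign in each comparison under at least 1 alternative, as did those of Pth1r after i.v. ASC and ASC-derived CM.

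Of the 9 members 0 were called at an adjusted p below 0.05 by edgeR in any of the 3 comparisons with untreated rats, where the share of all genes called was 0%, 0% and 0%. DESeq2 called 0, 28 and 4 genes after i.p. ASC, i.v. ASC and ASC-derived CM, with 0 members and 0 pathway genes among them. At an unadjusted p below 0.05, edgeR picked 0 of 9 members after i.p. ASC, against 3.89% of all genes tested (500 of 12867). After i.v. ASC it picked 4 of 9, against 8.81% of all genes (1133). These were Vdr, S100g, Calb1 and Kl, of which S100g was higher and the others lower. After ASC-derived CM it picked 2 of 9, against 6.6% of all genes (849), namely Calb1, which was lower, and S100g, which was higher. The members are not independent of each other, as their correlations show, and the 3 comparisons share the same untreated rats. The median log2 fold change of the members was -0.26, -0.37 and -0.16, beside medians of -0.01, -0.01 and 0.00 over all genes tested. The fold change was below 0 for 5, 7 and 5 of the 9 members, and for 6917, 6751 and 6543 of the 12867 genes. Between rats given cells by vein and by the peritoneal route, where edgeR called 0% of genes and DESeq2 24, log2 fold changes of the members ran from -0.58 for Cyp24a1 to 0.30 for S100g and 0 were called. In the test of any difference among the 4 groups edgeR called 0.0855% of genes (11) and 0 members, the smallest adjusted p of a member being 0.912.

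**Figure D2:**
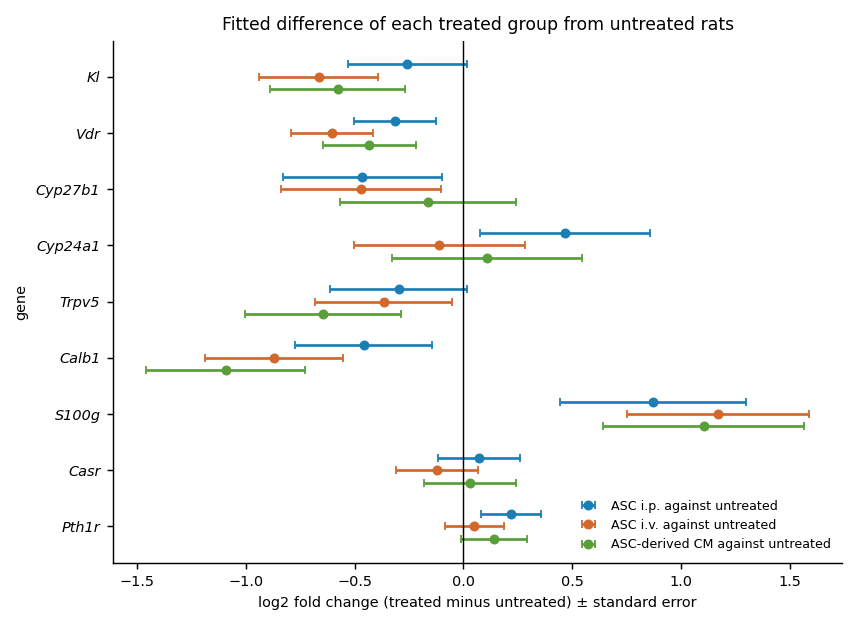
Log2 fold change of each gene (y axis) in each treated group against untreated rats (x axis), from the edgeR fit over all 22 rats; points are estimates, whiskers ± 1 standard error, colours the 3 comparisons. Kl, Vdr, Cyp27b1, Trpv5 and Calb1 lie below 0 and S100g and Pth1r above 0 in each comparison, down to -1.09 for Calb1 and up to 1.17 for S100g, and none passed an adjusted p of 0.05.

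Rat 6 of the i.v. ASC group differed from the other 5 in the same genes. In TPM it had the highest level of that group for Kl, Vdr, Trpv5 and Calb1 and the lowest for S100g. In log2 CPM, however, Trpv5 was higher in rat 2, at 7.33 against 7.11 in rat 6. Without rat 6 the log2 fold changes after i.v. ASC were -0.89 for Kl, -0.76 for Vdr, -1.05 for Calb1 and 1.34 for S100g. The smallest adjusted p among them was 0.128, for Vdr, so the members stayed short of the threshold, while the number of all genes called rose from 0 to 14. Without rat 2 of that group it rose to 11. Rats 6 and 2 had the lowest urothelium markers of the group, at a mean log2 CPM of -1.13 and -0.76, against 1.83 to 6.23 in the other 4. Rat 6 was singled out by the same genes, and its removal gave the lowest fold changes of Kl, Vdr and Calb1. Over 12 fits, each leaving out a different untreated or i.v. ASC rat, Kl ran from -0.89 to -0.54. Vdr ran from -0.76 to -0.53, Calb1 from -1.05 to -0.75 and S100g from 0.97 to 1.39. The unadjusted edgeR p was below 0.05 in 8 of the 12 fits for Kl and in all 12 for Vdr, Calb1 and S100g.

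The members varied together from rat to rat. Of the 36 pairs, 13 were correlated over the 22 rats at an adjusted p below 0.05 (Pearson r of log2 CPM, two-sided permutation test, Benjamini-Hochberg over the 36 pairs), 9 positively and 4 negatively. The share of such pairs among other genes is not given here, so the count does not set the members apart from them. Kl and Calb1 were the closest, with r = 0.90 (permutation p = 1e-05, the smallest that 100000 permutations can give, adjusted p = 0.00012) and rho = 0.84. Trpv5 and Calb1 had r = 0.85 (adjusted p = 0.00012), rho = 0.83, and Kl and Vdr r = 0.84 (adjusted p = 0.00012), rho = 0.81, in the same permutation test. Kl and Trpv5 had r = 0.75, Vdr and Calb1 r = 0.73 and Vdr and Trpv5 r = 0.57, which closes a block of 4 genes over the 22 rats. Within untreated, i.p. ASC and i.v. ASC rats r was 0.14, 0.78 and 0.70 for Kl and Trpv5. In the same order it was 0.68, 0.57 and 0.57 for Vdr and Calb1 and 0.71, 0.30 and 0.40 for Vdr and Trpv5. By Spearman's rho 14 of the 36 pairs had an adjusted permutation p below 0.05. S100g with Pth1r was then lost (rho = 0.49, adjusted permutation p = 0.0549), and Trpv5 with Pth1r (rho = -0.51) and Casr with Pth1r (rho = 0.52) were added. Kl, Calb1 and Trpv5 share the distal tubule as their known main site in the kidney.

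All 4 negative pairs joined S100g to this block. S100g had r = -0.75 with Vdr, -0.64 with Calb1, -0.59 with Kl and -0.55 with Trpv5, with adjusted permutation p between 0.00072 and 0.0235. Within the i.v. ASC group r of S100g with Calb1, Kl and Trpv5 was nearer to 0, at -0.07, -0.13 and -0.15, while r with Vdr was -0.85, -0.59 and -0.59 within untreated rats, i.p. ASC rats and i.v. ASC rats. The other positive pairs were Cyp24a1 with Casr (r = 0.65), Cyp24a1 with Pth1r (r = 0.61) and S100g with Pth1r (r = 0.56). After centring each gene on its group means, r was 0.89 for Kl and Calb1, 0.83 for Trpv5 and Calb1, 0.78 for Kl and Vdr, -0.65 for Vdr and S100g and 0.64 for Cyp24a1 and Casr. Leaving out the 2 rats farthest from the median of the first gene gave r of 0.88, 0.80, 0.81, -0.81 and 0.63 for these 5 pairs. For S100g with Calb1, Kl and Trpv5, centring moved r nearer to 0, to -0.48, -0.44 and -0.45. The pairs share libraries and depth, and r within groups of 6 rats is a description.

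**Figure D3:**
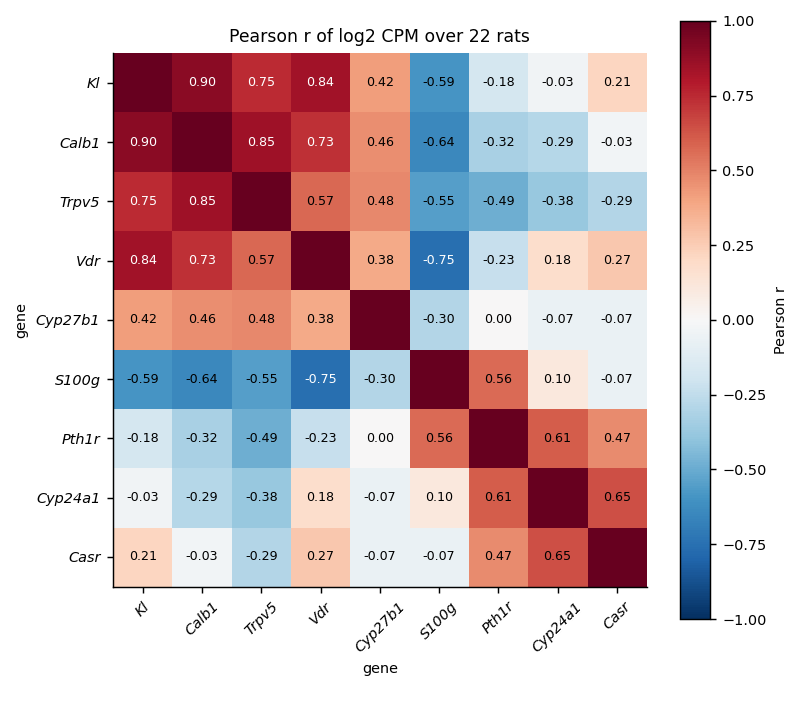
Pearson r of log2 CPM over the 22 rats for each pair of the 9 genes (both axes), coloured from -1 (blue) to 1 (red) with the value printed. Kl, Calb1, Trpv5 and Vdr form a block with r from 0.57 to 0.90, S100g is negative against all 4, and Cyp24a1 is positive with Casr and Pth1r.

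The block followed the markers of the distal convoluted and connecting tubule, a list without any of the members (6 tested genes, among them Slc12a3, the sodium chloride cotransporter, and Klk1, kallikrein). Over the 22 rats their mean log2 CPM correlated with Kl at r = 0.95 (permutation p = 1e-05, rho = 0.94), with Calb1 at r = 0.91 (rho = 0.84), with Trpv5 at r = 0.84 (rho = 0.68) and with Vdr at r = 0.74 (rho = 0.72). S100g was at r = -0.56 (rho = -0.60). Their adjusted permutation p, over 108 relations of the members with 12 measures of the rats, lay between 0.00027 and 0.0334, and 25 of the 108 were below 0.05, by Spearman's rho also 25. How often other genes would show such relations is not given here. Without the 2 rats farthest from the median of the list, r was 0.93 for Kl, 0.88 for Calb1, 0.78 for Trpv5, 0.69 for Vdr and -0.64 for S100g. Within the 3 groups of 6 rats r lay between 0.93 and 0.99 for Kl, 0.59 and 0.94 for Calb1, 0.53 and 0.65 for Vdr, 0.08 and 0.89 for Trpv5 and -0.82 and -0.04 for S100g, so that for Trpv5 and S100g it was near 0 in 1 group. Cyp24a1 and Pth1r correlated with the 13 proximal tubule markers, with r = 0.73 and 0.89 (adjusted permutation p = 0.00147 and 0.00027, rho = 0.73 and 0.86). Parathyroid hormone receptors are known from the proximal tubule. Without the 2 farthest rats these were 0.63 and 0.85. The proximal tubule markers also correlated with S100g (r = 0.65, rho = 0.60), Trpv5 (r = -0.60, rho = -0.68) and Calb1 (r = -0.55, rho = -0.57), with adjusted permutation p of 0.00851, 0.0153 and 0.0334, so the relations of these 3 genes were not limited to the distal markers. The 6 podocyte markers also correlated with Kl (r = 0.79, rho = 0.89), Trpv5 (r = 0.75, rho = 0.72), Calb1 (r = 0.73, rho = 0.72), Vdr (r = 0.73, rho = 0.74) and S100g (r = -0.64, rho = -0.63), with adjusted permutation p between 0.00036 and 0.0093. Casr had r = 0.70 (rho = 0.70) with the thick ascending limb markers, where it is known to lie, and r = -0.72 (rho = -0.62) with the markers of tubular injury, with adjusted permutation p of 0.00239 and 0.00171. Trpv5 had r = -0.54 (rho = -0.58) with the thick ascending limb markers. Pth1r had r = -0.69 (rho = -0.60) with the fibroblast and -0.62 (rho = -0.52) with the macrophage markers. The adjusted permutation p of these 3 values of r were 0.0407, 0.00324 and 0.0106. Over the 22 rats the summed level of these lists ran from 1805 to 16344 TPM for proximal tubule, from 58.5 to 386 TPM for podocytes, from 2077 to 6015 TPM for the thick ascending limb and from 7099.9 to 15610.5 TPM for tubular injury. For principal cells it ran from 1294 to 3418 TPM, for intercalated cells from 899.9 to 2036 TPM, for macrophages from 213 to 973 TPM and for fibroblasts from 192 to 763 TPM.

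**Figure D4:**
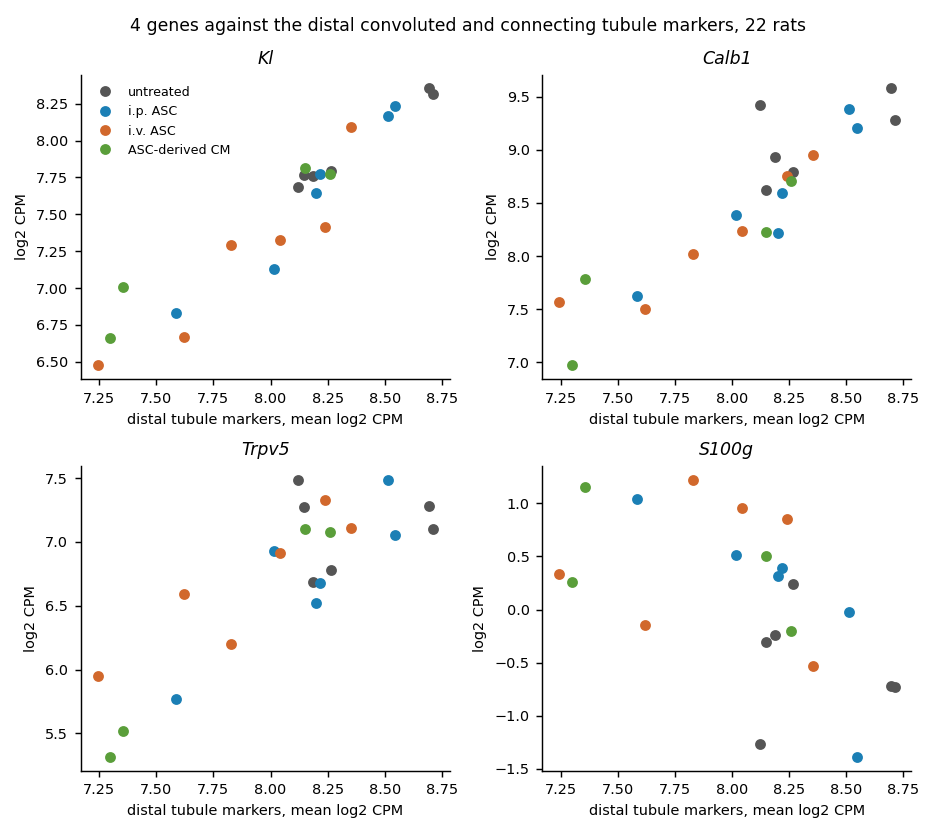
Log2 CPM of Kl, Calb1, Trpv5 and S100g (y axes, 1 panel each) against the mean log2 CPM of the distal convoluted and connecting tubule markers (x axis); each point is 1 of the 22 rats, coloured by group. Kl, Calb1 and Trpv5 are higher in rats with higher markers (r = 0.95, 0.91 and 0.84) and S100g is lower there (r = -0.56).

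The distal markers themselves were lower on average in the treated groups, at a mean log2 CPM of 8.35 ± 0.27 (SD, n = 6) in untreated rats, 8.18 ± 0.35 after i.p. ASC, 7.89 ± 0.41 after i.v. ASC and 7.76 ± 0.51 after ASC-derived CM (n = 4). Of the 6 tested, 0 passed the adjusted threshold in any comparison. Other lists differed between the groups as well, with 0 markers called. The median log2 fold change of the podocyte markers was -0.37 after i.p. ASC, -0.80 after i.v. ASC and -0.58 after ASC-derived CM, with all 6 below 0 each time, beside -0.15, -0.45 and -0.58 for the distal markers. That of the proximal tubule markers was 0.76, 0.85 and 0.997, with 4, 4 and 2 of the 13 below 0. The summed level of the distal markers ran from 2412 to 4458 TPM in untreated rats, 1613 to 4507 TPM after i.p. ASC, 1171 to 3424 TPM after i.v. ASC and 1115 to 2797 TPM after ASC-derived CM. With the mean of these markers as a covariate, the log2 fold change after i.v. ASC was -0.13 for Kl, -0.32 for Vdr, 0.13 for Trpv5, -0.34 for Calb1 and 0.83 for S100g. After ASC-derived CM it was 0.12 for Kl, -0.09 for Vdr, -0.13 for Trpv5, -0.41 for Calb1 and 0.63 for S100g. The part that the amount of distal tubule had in these differences cannot be told apart from the level per cell.

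Other measures of the rats moved with the members as well. The animal number, the running number in the labels, was higher in untreated rats (median 20, range 1 to 24) than after i.p. ASC (median 11), i.v. ASC (median 9.5) or ASC-derived CM (median 15), and it correlated with Kl at r = 0.58 (adjusted permutation p = 0.0308, rho = 0.66) and with Vdr at r = 0.56 (adjusted permutation p = 0.0334, rho = 0.52 with an adjusted permutation p of 0.0548). Without the 2 rats farthest from the median number, r was 0.66 and 0.74, and within the groups of 6 rats it ran from 0.02 to 0.85 for Kl and from 0.17 to 0.68 for Vdr. S100g had r = -0.45 with the animal number (adjusted permutation p = 0.105) and rho = -0.54 (adjusted permutation p = 0.0447). Its r was -0.71 without the 2 farthest rats and ran from -0.81 to 0.34 within the groups of 6. The labels do not say what the number stands for. With it as a covariate the log2 fold change after i.v. ASC was -0.38 for Kl, -0.46 for Vdr, -0.72 for Calb1 and 0.79 for S100g. The second measure was the level of short against long transcripts, as the mean log2 CPM of the shortest minus that of the longest 10% of genes tested. It was -1.11 ± 0.18 in untreated rats, -0.96 ± 0.20 after i.p. ASC, -0.91 ± 0.18 after i.v. ASC and -1.05 ± 0.21 after ASC-derived CM. It correlated with Vdr at r = -0.83, with Kl at r = -0.69 and with S100g at r = 0.71, with adjusted permutation p of 0.00036, 0.00364 and 0.00208 and rho of -0.82, -0.69 and 0.75. Without the 2 farthest rats r was -0.79, -0.68 and 0.67, and within the groups of 6 rats r of Vdr ran from -0.87 to -0.79. With it as a covariate the log2 fold change after i.v. ASC was -0.33 for Kl, -0.31 for Vdr, -0.56 for Calb1 and 0.65 for S100g. With the urothelium markers as a covariate it was -0.50, -0.49, -0.59 and 0.73, and no member correlated with that list at an adjusted permutation p below 0.05, the smallest being 0.188 for Pearson's r, of S100g, and 0.150 for Spearman's rho, of Vdr. After ASC-derived CM the same covariates shifted the values of these 4 genes by less than after i.v. ASC. With animal number they were -0.49 for Kl, -0.38 for Vdr, -1.07 for Calb1 and 0.88 for S100g, with short transcripts -0.53, -0.36, -1.06 and 0.94, and with urothelium -0.60, -0.45, -1.13 and 1.14. The part of animal number, transcript length and urothelium in the differences was not tested further.

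**Figure D5:**
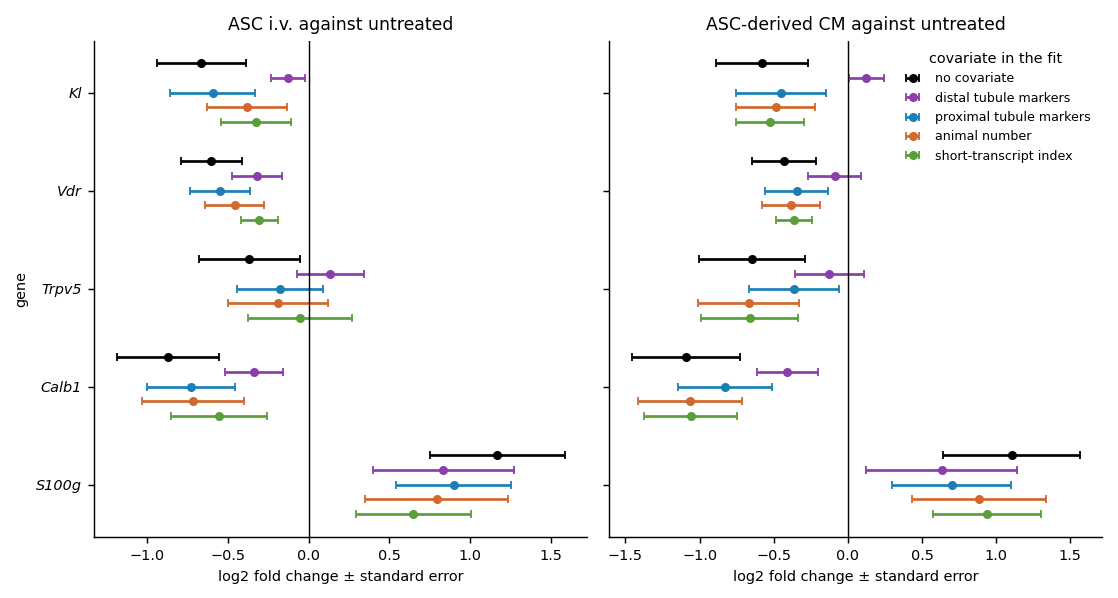
Log2 fold change (x axis) of 5 genes (y axis) after i.v. ASC (left) and ASC-derived CM (right) against untreated rats, without a covariate and with each of 4 covariates (colours); whiskers are ± 1 standard error. With the distal tubule markers in the fit Kl moved from -0.67 to -0.13 after i.v. ASC and from -0.58 to 0.12 after ASC-derived CM, while S100g stayed above 0 with each covariate shown.

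The genes most like each member over the 22 rats, by Pearson r of log2 CPM over all genes tested, were found for each. For Kl they were Tmem52b (r = 0.95), Car12 (0.95) and Igfbp5 (0.94), and for Calb1 Slc8a1 (0.93), the sodium-calcium exchanger of the same cells, Tmem52b (0.93) and Slc16a7 (0.91). Tmem52b is also in the distal marker list. For Trpv5 they were Sptlc2 (0.92), Ctsc (0.92) and Zdhhc14 (0.89), and for Vdr Prps2 (0.93), Caprin1 (0.91) and Abi2 (0.90). For S100g they were Tmem205 (0.87), Tarbp2 (0.85) and Ftl1 (0.85). For Pth1r they were Slc37a4 (0.92), the glucose-6-phosphate transporter, Selenop (0.92) and Elovl1 (0.91). For Cyp24a1 they were Ppp4r3b (0.84), Mfn1 (0.80) and Fgfr1 (0.80), for Casr Lipg (0.87), Itprid2 (0.86) and Flrt1 (0.82), and for the sparse Cyp27b1 Vmo1 (0.75), Lims2 (0.73) and Acta2 (0.71). The lowest r belonged to Zfp524 for Kl (-0.86), Rps10 for Vdr (-0.89), Tmc5 for Cyp27b1 (-0.72), Rab26 for Cyp24a1 (-0.81), Plau for Trpv5 (-0.91), Rarres1 for Calb1 (-0.86), Rap1gap2 for S100g (-0.87), Gstm4 for Casr (-0.83) and Nradd for Pth1r (-0.88). Rps10 is short, at percentile 2.49 of transcript length, and Rap1gap2 is long, at percentile 83.2. These are the extremes of 12867 genes and carry no test.

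The wider pathway was described with 66 other genes in 6 roles, of which 63 were measured and 58 tested. None of the 58 passed the adjusted threshold by edgeR in any comparison with untreated rats. DESeq2 called 0 of them as well. At an unadjusted p below 0.05 edgeR gave 1 after i.p. ASC, 6 after i.v. ASC and 4 after ASC-derived CM. That is 1.72%, 10.3% and 6.9% of the 58, beside 3.89%, 8.81% and 6.6% of all genes tested. DESeq2 gave 6, 7 and 6 of the pathway genes, beside 723, 1379 and 1042 of all genes, so the count after i.p. ASC depended on the tool. The median log2 fold change of the 58 was -0.01, -0.03 and -0.01.

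Among calcium transporters of the distal tubule (11 tested), Slc8a1, which moves calcium out towards the blood, was at 58.6 ± 11.5 TPM in untreated rats, 42.3 ± 19.2 TPM after i.p. ASC, 34.9 ± 15.3 TPM after i.v. ASC and 31.9 ± 17.02 TPM after ASC-derived CM. Its log2 fold change was -0.39 ± 0.29, -0.65 ± 0.29 and -0.85 ± 0.33, with adjusted p of 0.772, 0.523 and 0.711 by edgeR. Atp2b4, a calcium pump, had -0.42 ± 0.34, -0.66 ± 0.34 and -0.37 ± 0.38. Among klotho partners and sheddases (8 tested), Fgfr2, a receptor for fibroblast growth factors, had -0.38 ± 0.14 after ASC-derived CM and Adam17, a protease that sheds klotho, -0.19 ± 0.08 after i.v. ASC. Among genes of vitamin D uptake and activation (13 tested), Fdx1, the ferredoxin that feeds electrons to Cyp27b1 and Cyp24a1, had 0.30 ± 0.13 and Dab2, an adaptor of the uptake receptors, -0.30 ± 0.14 after i.v. ASC. These 4 values had adjusted p of 0.523 or 0.711, and each is from the comparison with the smallest unadjusted p for its gene. Fgfr2 had -0.16 after i.p. ASC and -0.08 after i.v. ASC. After i.p. ASC and ASC-derived CM, Adam17 had -0.11 and -0.13, Fdx1 0.19 and 0.20 and Dab2 -0.15 and -0.20.

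Of the parathyroid hormone genes (5 tested), Pthlh, the hormone-related peptide that acts through Pth1r, had a log2 fold change of -0.59 ± 0.39, -0.85 ± 0.40 and -0.87 ± 0.45 in the 3 comparisons, and Gnaq, a G protein subunit, -0.23 ± 0.18, -0.24 ± 0.18 and -0.10 ± 0.20. Of the genes for calcium and magnesium between and across cells, 8 were tested. Among them Cldn14, a claudin that limits calcium passage in the thick ascending limb, had a low level. It stood at 1.55 to 2.40 TPM in untreated rats and at 0.776 to 1.29 TPM after i.p. ASC. It was the pathway gene with the smallest unadjusted p, 0.000876 by edgeR, at a log2 fold change of -0.71 ± 0.18, and the adjusted p was 0.771. After i.v. ASC Cldn14 had -0.16 ± 0.18 and after ASC-derived CM 0.01 ± 0.20. Cnnm2, a magnesium transport protein, had -0.11 ± 0.15 after i.p. ASC, -0.30 ± 0.15 after i.v. ASC and -0.46 ± 0.17 after ASC-derived CM. Cldn10, a claudin named here after its values were seen, was the only one of the 8 with an unadjusted p below 0.05 in the direction of higher levels, with 1.15 ± 0.46 after i.v. ASC and 1.25 ± 0.50 after ASC-derived CM. After i.p. ASC Cldn10 had 0.95 ± 0.46, at an unadjusted edgeR p of 0.0502. Of 13 phosphate genes 0 had an unadjusted p below 0.05 by edgeR. The smallest were those of Slc20a1, a phosphate importer, at 0.17 ± 0.08 after i.p. ASC, and of Stc1, a stanniocalcin, at -0.55 ± 0.27 after ASC-derived CM. Slc20a1 had 0.16 ± 0.08 after i.v. ASC and -0.05 ± 0.09 after ASC-derived CM. Stc1 had -0.14 ± 0.24 after i.p. ASC and -0.31 ± 0.24 after i.v. ASC.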

How the data were processed

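Kidney RNA of 22 rats was sequenced, and 2 kinds of value per gene and rat were analysed. Estimated counts per rat Entrez gene were deposited by the authors unnormalized. TPM values, counts scaled to transcript length and library total, were also deposited by the authors and sum per rat to between 959754 and 968550. The submitters' processing notes name Trim Galore 0.6.4, kallisto 0.4.6 and the build rn6. Other treated groups of the study were not analysed here.

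Estimated counts were rounded, since 14.1% were not whole. Symbols came from the RefSeq table of GRCr8 (17179 of 17334 genes matched). Genes with near-identical copies, overlapping or antisense genes are uncertain, since how their reads were split is not stated. Among 51 pairs of rats within groups, chi-square per gene was 7.51 or more, so no library was counted as a repeat. Groups were taken from the labels. Differences came from 1 edgeR 4.0.16 fit of all 22 rats (R 4.3.3, quasi-likelihood F test, TMM factors, filterByExpr), with p-values adjusted by Benjamini-Hochberg over 12867 genes and called below 0.05. The prior count of log2 CPM was 2. DESeq2 1.42.0, RLE size factors, no filter, a minimum of 10 counts in every rat, the compared groups alone, limma 3.58.1 on log2(TPM + 1), covariates and leaving out each rat were the alternatives. The covariates of short transcripts and of urothelium markers were chosen after seeing the data. Correlations used 100000 permutations. The script was tested on simulated data of the i.v. ASC comparison (12779 genes for edgeR). There edgeR found 100 of 100 genes changed by a log2 value of 2 and 99 of 100 changed by 1, with 11 false calls. The simulation gave every gene the same dispersion and the rats no differences in cell types, and genes of low level were not among those changed. It therefore cannot say how often changes of this size would be found in these kidneys.

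The members, pathway genes and marker lists were chosen with earlier results of these data known. Named were all members, the 2 genes of each pathway role with the smallest unadjusted p over the 3 comparisons with untreated rats, any past the threshold, and for each member the 3 genes with the highest and the 1 with the lowest Pearson r. Marker lists covered proximal tubule, thick ascending limb, distal convoluted and connecting tubule, principal cells, intercalated cells, podocytes, urothelium, macrophages, fibroblasts and tubular injury.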

Additional observations from a re-analysis of the deposited data

Results flagged for a closer look

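Each member was checked for a rat far from the others of its group, in 36 sets of values, and 4 stood out. Chance picks about 1 in 20 such sets. Rat 6 of the i.v. ASC group was the highest of its group for Kl, at 114.6 TPM against 33.4 to 55.9 TPM in the other 5, and for Vdr, at 65.3 TPM against 29.5 to 36.7 TPM. Rat 4 of the untreated group was the highest for Cyp27b1, at 1.43 TPM against 0.381 to 0.697 TPM. Rat 2 of the i.v. ASC group was the lowest for Casr, at 13.5 TPM against 23.9 to 25.3 TPM. The causes were not tested.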

How the results depend on the processing

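Calls among the members and the pathway genes stayed at 0 under every alternative run, and of 596 alternative fold changes of the members 562 kept their sign and stayed short of the threshold, the smallest adjusted p being 0.128. Genes called over the whole table moved with DESeq2 to 28 after i.v. ASC, 4 after ASC-derived CM, 24 between i.v. and i.p. ASC rats and 44 for any difference. They moved to 1 after ASC-derived CM with the compared groups alone. For any difference the count moved from 11 to 7 with the distal tubule covariate, and to 0 with at least 10 counts in every rat, with limma, or with animal number or short transcripts as covariate, and to 0 with the urothelium covariate. Leaving out each rat gave 0 to 14 genes after i.v. ASC, 0 to 13 between i.v. and i.p. ASC rats (13 without i.v. ASC rat 2 or rat 6) and 0 to 18 for any difference (0 without i.v. ASC rat 3, 5 without rat 1 or rat 5 of that group, 18 without rat 6). The number of correlated pairs, 13, was 11 to 15 with each rat left out.

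The fold changes that changed sign were uncalled, and the cause was not tested. With the distal tubule covariate the log2 fold change was 0.12 for Kl, 0.27 for Cyp27b1 and -0.034 for Cyp24a1 after ASC-derived CM, and 0.13 for Trpv5 and -0.016 for Pth1r after i.v. ASC. With the proximal tubule covariate it was -0.020 for Cyp24a1 and -0.023 for Casr after i.p. ASC, -0.24 for Cyp24a1, -0.099 for Casr and -0.059 for Pth1r after ASC-derived CM, and -0.078 for Pth1r after i.v. ASC. With limma it was -0.0093 for Casr after i.p. ASC, -0.00052 for Casr after ASC-derived CM and -0.069 for Pth1r after i.v. ASC. With animal number it was 0.0065 for Casr and -0.073 for Pth1r after i.v. ASC. For Pth1r after i.v. ASC it was -0.063 with short transcripts and -0.098 with urothelium. Leaving out each rat gave -0.46 to 0.16 for Cyp27b1 after ASC-derived CM, -0.26 to 0.092 for Cyp24a1 after i.v. ASC, -0.082 to 0.31 for Cyp24a1 and -0.078 to 0.14 for Casr after ASC-derived CM, -0.038 to 0.18 for Casr after i.p. ASC and -0.036 to 0.11 for Pth1r after i.v. ASC. With at least 10 counts in every rat, Cyp27b1 and S100g gave no value, nor did S100g with the i.v. ASC and untreated groups alone. No paired analysis was possible because rats of different groups are different animals and the labels give no shared number. Depth limits Cyp27b1 and S100g, with at most 32 and 27 counts per rat.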
